A study of Mus musculus with 6 samples.

Results

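Histones are the proteins around which DNA is wound. Most are made from small genes that lie together in a few clusters, and this account covers those genes in the glomeruli of the mouse kidney, the tufts of capillaries that filter the blood. The members were the rows of the deposited expression table whose symbol starts with Hist1h, Hist2h, Hist3h or Hist4h, which gave 68 of its 24062 rows. By type they comprised 6 rows of linker histone H1, 18 of H2A, 19 of H2B, 12 of H3 and 13 of H4. By cluster, 54 rows belonged to Hist1 on mouse chromosome 13, 10 to Hist2 on chromosome 3, 3 to Hist3 on chromosome 11 and 1 to Hist4 on chromosome 6.

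H2A, H2B, H3 and H4 form the nucleosome core, and H1 binds the DNA between cores. The clustered genes are known as replication-dependent: dividing cells switch them on in S phase, when new DNA has to be packed, and their mRNAs end in a short stem-loop instead of a poly(A) tail. The stem-loop binding protein, encoded by Slbp, holds this end and guides its processing. Some members also yield poly(A)-tailed transcripts in cells that do not divide. Many variant histones, encoded outside the clusters, have ordinary poly(A) tails and are made throughout the cell cycle, but this does not hold for all of them. Podocytes, the epithelial cells that carry the filtration slits, rarely divide in the healthy glomerulus.

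RNA was sequenced from magnetically isolated glomeruli of FVB/N mice, in 3 control libraries labelled Klf4 fl/fl and 3 knockout libraries labelled Podocin-Cre Klf4 fl/fl. All 6 libraries carry the floxed alleles of Klf4, a zinc finger transcription factor gene, and the podocin promoter limits Cre to podocytes. No library carries Cre alone, so an effect of Cre and one of Klf4 loss cannot be told apart. The labels give neither the age of the mice nor which animal each library came from. The p-values therefore rest on the variation among these 6 libraries, and some of that variation may be technical.

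The values are RPKM, read numbers scaled by gene length and library depth, so that counted levels of different genes can be set side by side. The scaling does not correct for sequence shared between gene copies or for mRNA without a poly(A) tail. The libraries held 38936993 to 58272424 counted reads. For a gene model of 1 kb, each read adds 0.0172 to 0.0257 RPKM. Klf4 stood at 21.5, 44.3 and 49.8 RPKM in the controls and at 29.4, 40.3 and 41.4 RPKM in the knockouts. These groups overlapped, and since only podocytes carry the deletion, whole-glomerulus Klf4 does not check the labels. Summed RPKM of 10 podocyte markers ran from 3096 to 6042 in controls and from 854 to 2181 in knockouts, and 7 of the 10 were called lower. Summed RPKM of 10 leukocyte markers ran from 21.4 to 40.4 in controls and from 94.2 to 269 in knockouts, and 7 of the 8 tested were called higher. All 5 parietal epithelial markers were called higher, with sums of 28.4 to 39.1 RPKM against 138 to 294 RPKM. Sums of 6 endothelial markers ran from 1651 to 2429 RPKM in controls and from 857 to 1512 RPKM in knockouts with none called, and those of 5 mesangial markers from 901 to 1358 RPKM and from 445 to 677 RPKM with 2 called lower. Sums of 6 proximal tubule markers overlapped, at 600.3 to 1224 RPKM and 636 to 1385 RPKM, with 1 called higher. None of these markers was at 0 in all libraries. Any part of cell makeup in the histone values below was not tested, and in such bulk samples fewer cells of a type and less RNA per cell cannot be told apart.

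The stem-loop matters for sequencing because many protocols select RNA by its poly(A) tail. The labels describe standard Illumina libraries from total RNA without saying whether poly(A) RNA was selected, so the share of tailless histone mRNA that entered the libraries is not known. A perfect copy of the stem-loop, with both arms of 6 bases able to pair, was found in an annotated GENCODE M21 transcript of 46 of the 68 members. Several others have shorter transcripts there than their RefSeq gene span, such as 312 against 409 bases for Hist1h4k and 381 against 473 for Hist1h2bl. A stem-loop past such an end would be missed, so no match does not show that a gene lacks it. The sequences of the members that carry the comparison are shown 5′ to 3′, with the paired stem in capitals and the loop in lower case, since this element sets apart the tailless histone messages.

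Hist1h1e: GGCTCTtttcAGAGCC
Hist1h1c: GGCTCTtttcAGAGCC
Hist1h2be: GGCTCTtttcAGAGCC
Hist1h3d: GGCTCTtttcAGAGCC
Hist3h2a: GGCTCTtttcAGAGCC
Hist1h4i: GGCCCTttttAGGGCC
Hist2h4: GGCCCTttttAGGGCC
Hist4h4: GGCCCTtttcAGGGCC

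The H1, H2A, H2B and H3 members shown share 1 element, and the 3 H4 members shown share a stem with an exchanged base pair. No stem-loop lay in the annotated transcripts of Hist1h2bc and Hist2h2be, which are among the more highly expressed members.

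Levels among the members were very uneven. Over the 6 libraries 32955 reads fell on clustered histone genes, and 3 rows held 74.8% of them. Hist1h2bc, an H2B gene at chr13:23684199-23692480 on the plus strand (GRCm38, RefSeq symbol H2bc4), took 39.6%. Its level was 78.8, 58.8 and 57.2 RPKM in the controls and 71.3, 52.6 and 51.4 RPKM in the knockouts. Hist1h1c, a somatic H1 gene at chr13:23738807-23739531 (plus strand, H1f2), took 25.8%, with 38.3, 49.8 and 40.3 RPKM in controls and 44.9, 50.4 and 32.5 RPKM in knockouts. Hist3h2a, an H2A gene at chr11:58954685-58955192 (plus strand, H2aw), took 9.34%, with 27.3, 22.3 and 17.4 RPKM in controls and 22.4, 18.8 and 22.6 RPKM in knockouts. For each of these 3 genes the groups overlapped. No other member had a mean above 6.19 RPKM in either group, and 49 of the 68 had a mean under 0.5 RPKM over the 6 libraries, the filter for the test. Of these 49, 39 had reads, at most 65 over all libraries, and 10 had none.

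**Figure D1:**
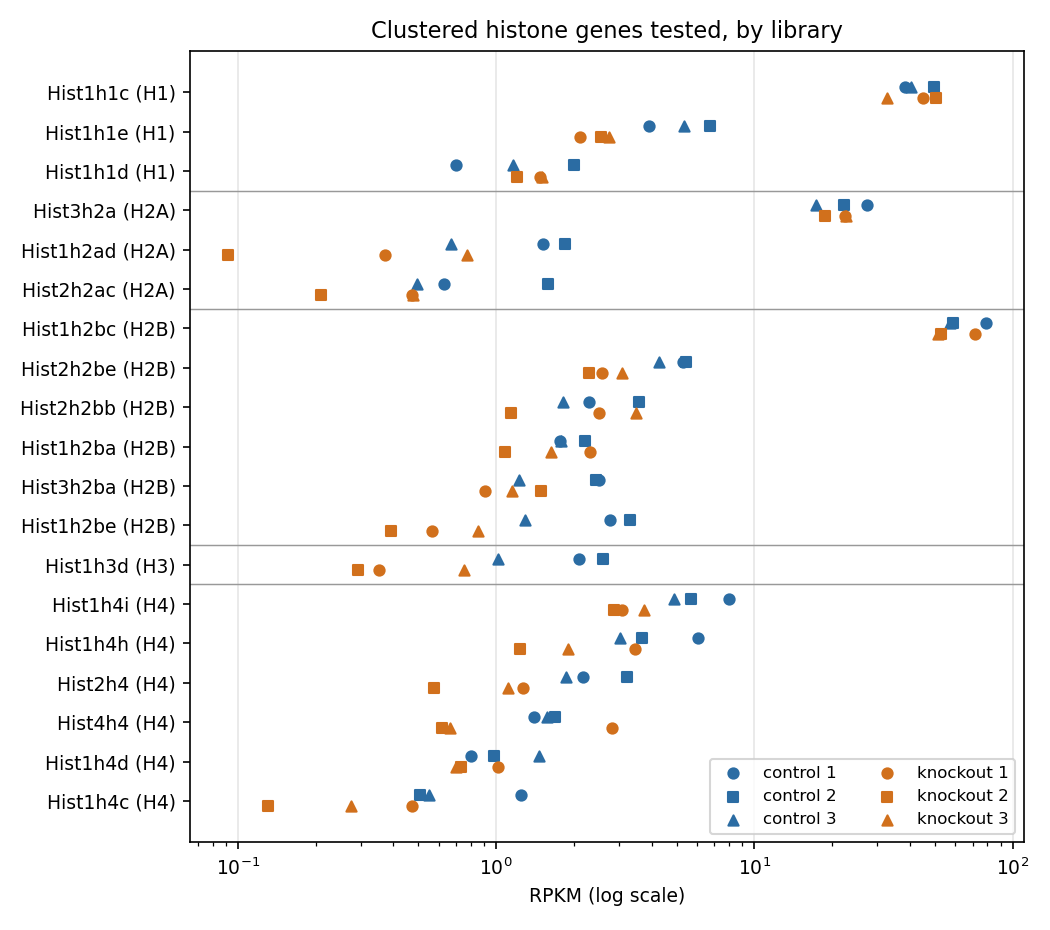
RPKM (log axis) of the 19 clustered histone genes that average 0.5 RPKM or more, ordered by type and level, with 1 point per library. Blue marks controls and orange knockouts, and marker shape is the library number, for which the labels give no pairing. Hist1h2bc, Hist1h1c and Hist3h2a stand well to the right with overlapping groups, whereas Hist1h1e, Hist1h4i, Hist2h4, Hist1h3d, Hist1h2be and Hist2h2be have every knockout below every control.

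Knockout and control libraries were compared with limma on log2(RPKM + 0.5) over the 13912 genes averaging 0.5 RPKM or more across the libraries, with Benjamini-Hochberg adjustment over all of them. Fold changes on this scale are understated for low genes. Of 19 clustered histone genes tested, none was called higher and 6 were called lower at an adjusted p under 0.05, where 9.98% of all genes tested were called higher and 3.48% lower. Of the same 19, 18 had a negative log2 change, against 39.2% of all genes. Every knockout library lay below every control library for 8 of the 19 members, against 11.4% of all genes. The median log2 change was -0.60 over the 19 members and 0.10 over all genes. At an unadjusted p under 0.05, 0 members were higher and 8 lower. All 19 had a control mean of at least 0.5 RPKM, but 4, Hist1h2ad, Hist1h3d, Hist1h4c and Hist2h2ac, had a knockout mean below it and so passed the filter through the controls, which makes the counts over the 19 a description. Among the 15 with both group means at or above 0.5 RPKM, 5 were called lower and the median log2 change was -0.34. The share of all genes called under this stricter rule was not computed. The members nearest the filter were Hist1h4c at a mean of 0.530 RPKM inside it and Hist1h2bg at 0.488 RPKM outside it.

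**Figure D2:**
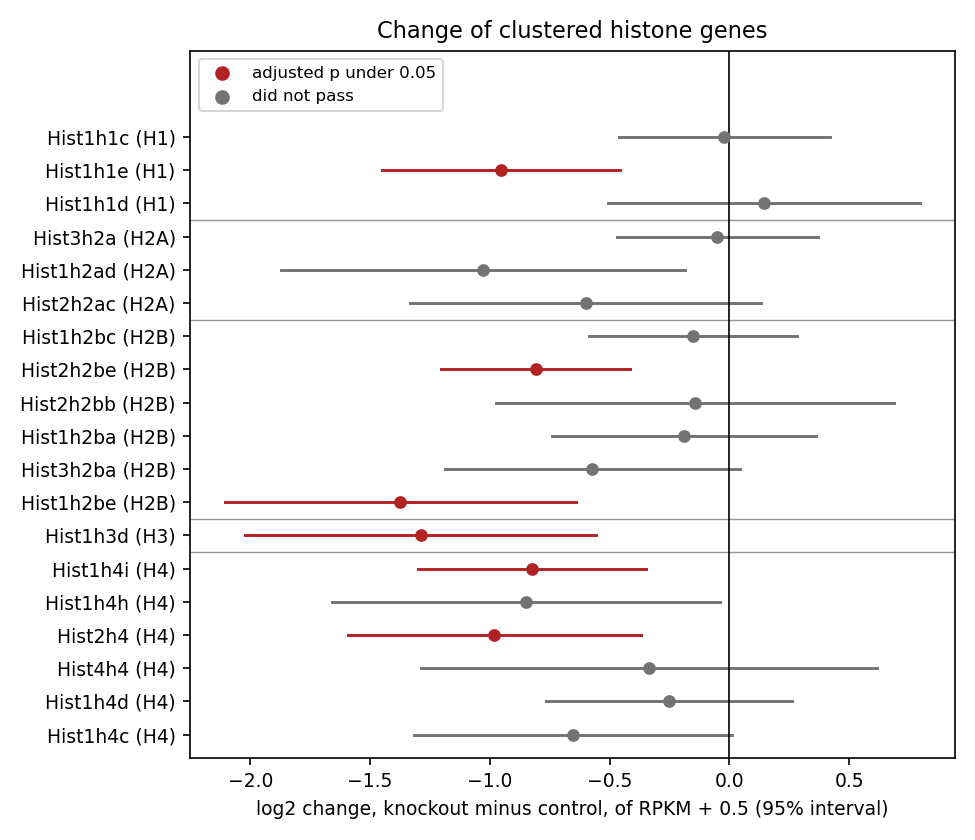
Log2 change of RPKM + 0.5 from control to knockout (points) with its 95% interval from the limma fit (lines) for the 19 clustered histone genes tested, 3 libraries a group. The 6 red genes passed an adjusted p under 0.05 and all lie to the left of 0, and Hist1h1d is the one gene with a positive estimate.

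Among H1 genes, which encode the linker histones, 1 of 3 tested was called lower. Hist1h1e (chr13:23621777-23622558, minus strand, H1f4) stood at 3.90, 6.77 and 5.35 RPKM in the controls and at 2.12, 2.54 and 2.74 RPKM in the knockouts. Its groups did not overlap, and the mean fell from 5.34 ± 1.43 to 2.47 ± 0.318 RPKM (SD, n = 3 each), which is -0.95 on the log2 scale (SE 0.213, adjusted p = 0.0288). Hist1h1c, the clustered H1 gene with the highest level, had a log2 change of -0.02 with a 95% interval of -0.46 to 0.42 (adjusted p = 0.955). Hist1h1d (H1f3) had 0.698, 2.01 and 1.16 RPKM against 1.48, 1.20 and 1.5 RPKM, overlapping groups with a log2 change of 0.15 (adjusted p = 0.762). The 3 other H1 genes were under the filter. Hist1h1b (H1f5), another somatic H1 gene, had 2, 2 and 1 reads in the controls and 12, 5 and 24 reads in the knockouts. Per counted read this is a ratio of 7.51, with a 95% interval of 2.97 to 24.3 that covers counting error only. Hist1h1a (H1f1) had 3, 8 and 4 reads against 12, 8 and 12 reads, a ratio of 1.95 with an interval of 1.03 to 3.88. For both genes every knockout value in RPKM lay above every control value, the opposite order to Hist1h1e, and at these depths neither could be tested with the rest. Hist1h1t, the H1 of male germ cells, had 3, 2 and 0 reads against 2, 0 and 3 reads.

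Of the H2A genes, which pair with H2B in the nucleosome, 3 of 18 were tested and none passed by limma or voom, with 0 higher and 1 lower at an unadjusted p under 0.05. Hist3h2a had a log2 change of -0.05 with a 95% interval of -0.47 to 0.37 (adjusted p = 0.880). Its annotated exon lies wholly inside an exon of Trim17 on the same strand, but Trim17 itself stood at 0.573 ± 0.125 RPKM in controls and 0.641 ± 0.217 RPKM in knockouts (SD, n = 3 each), far below Hist3h2a. Hist1h2ad had 1.52, 1.85 and 0.672 RPKM in controls and 0.372, 0.0917 and 0.770 RPKM in knockouts, a log2 change of -1.03 (adjusted p = 0.103). The groups overlapped, since the control at 0.672 RPKM lay below the knockout at 0.770 RPKM. With quantile normalization Hist1h2ad was called lower, at -1.37 (adjusted p = 0.0403), and over 14 alternatives its adjusted p ran from 0.0403 to 0.316. Hist2h2ac had 0.631, 1.59 and 0.494 RPKM against 0.472, 0.210 and 0.477 RPKM, groups that did not overlap although the change of -0.60 did not pass (adjusted p = 0.244). Under the filter, Hist2h2ab had 5, 19 and 3 reads against 16, 1 and 2 reads, and Hist1h2ah had 19, 8 and 2 reads against 6, 0 and 12 reads, both overlapping.

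H2B genes gave most of the clustered histone reads, and 2 of 6 tested were called lower. Hist2h2be (chr3:96221072-96223738, plus strand, H2bc21), which has a long 3′ end in the annotation and no stem-loop in it, had 5.31, 5.42 and 4.27 RPKM in the controls and 2.57, 2.29 and 3.07 RPKM in the knockouts. The mean fell from 5.00 ± 0.637 to 2.64 ± 0.399 RPKM, a log2 change of -0.81 (SE 0.169, adjusted p = 0.0233), and the groups were well apart. Hist1h2be (H2bc6), an H2B gene on the minus strand at chr13:23583670-23621124, had 2.76, 3.30 and 1.29 RPKM against 0.563, 0.391 and 0.848 RPKM. The groups were apart, and the change was -1.37 on the log2 scale (SE 0.314, adjusted p = 0.0309). The GENCODE exons of Hist1h2be overlap those of Hist1h1e over 496 bases on the same strand. The recovered length of Hist1h1e, 782 bases, equals its RefSeq span, however, and that span begins past the end of Hist1h2be. Reads in the overlap would lie outside a Hist1h1e model of that span. Hist1h2bc had a log2 change of -0.15 with a 95% interval of -0.59 to 0.28 (adjusted p = 0.625). The difference between its change and those of the called H2B genes was not tested. Hist2h2bb had 2.30, 3.59 and 1.82 RPKM against 2.51, 1.14 and 3.48 RPKM and changed by -0.14 (adjusted p = 0.820), and an antisense gene covers its whole exon. Hist3h2ba had 2.50, 2.43 and 1.22 RPKM against 0.909, 1.49 and 1.15 RPKM, overlapping through the control at 1.22 RPKM, with a change of -0.57 (adjusted p = 0.193). Its neighbour, the pseudogene Hist3h2bb-ps, had 12 reads in all. Hist1h2ba, the H2B known from the testis, had 1.77, 2.20 and 1.78 RPKM against 2.30, 1.08 and 1.63 RPKM, a change of -0.19 (adjusted p = 0.630), while its testis partner Hist1h2aa had 1 read in all libraries.

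H3 genes were the most weakly detected type, with 327 reads over 12 rows. Hist1h3d (chr13:23575763-23576266, plus strand, H3c4) was the 1 member tested and held 168 of these reads. It stood at 2.10, 2.61 and 1.02 RPKM in the controls and at 0.351, 0.292 and 0.749 RPKM in the knockouts. The mean fell from 1.91 ± 0.810 to 0.464 ± 0.249 RPKM, a log2 change of -1.29 (SE 0.314, adjusted p = 0.0379), without overlap. Since its knockout mean is under 0.5 RPKM, it passed the filter through the controls alone, and a gene that does so has to be lower in the knockouts. Of 504 bases in its model, 34.2% of the 50-base words occur in no other member, so its reads partly depend on how the authors' counting treated reads with several matches. The next 4 H3 genes by level, Hist2h3b, Hist1h3e, Hist1h3a and Hist1h3g, had 43, 33, 24 and 14 reads in all libraries, and in each the groups overlapped.

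H4, the most conserved core histone, had 2 of 6 tested genes called lower. Hist1h4i (chr13:22040960-22041362, minus strand, H4c9), the highest of them, had 8.0, 5.67 and 4.91 RPKM in the controls and 3.07, 2.86 and 3.75 RPKM in the knockouts. The mean fell from 6.19 ± 1.61 to 3.23 ± 0.463 RPKM, or -0.82 on the log2 scale (SE 0.204, adjusted p = 0.0395). Hist2h4 (chr3:96262934-96263317, minus strand, H4c14), a Hist2 gene with the same stem-loop, had 2.18, 3.22 and 1.87 RPKM against 1.27, 0.575 and 1.12 RPKM, a log2 change of -0.98 (SE 0.262, adjusted p = 0.0485). In both genes all knockouts lay below all controls. Hist1h4h had 6.05, 3.68 and 3.01 RPKM against 3.45, 1.24 and 1.89 RPKM, a change of -0.85 that did not pass (adjusted p = 0.149), with 1 knockout above 1 control. Hist4h4, alone on chromosome 6, had 1.4, 1.69 and 1.58 RPKM against 2.82, 0.615 and 0.665 RPKM, a change of -0.34 (adjusted p = 0.622). Its first knockout was above every control and the other two were below them. Without knockout 1 the change was -0.85 and passed (adjusted p = 0.0453), and without knockout 2 it was -0.06 (adjusted p = 0.955); over 14 alternatives the adjusted p ran from 0.0453 to 0.955. Hist1h4d changed by -0.25 (adjusted p = 0.483), with overlapping groups. Hist1h4c, named because its groups did not overlap after its values were seen, had 1.25, 0.508 and 0.548 RPKM against 0.471, 0.131 and 0.275 RPKM and a change of -0.65 (adjusted p = 0.171).

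The calls were sensitive to single libraries. None of the 6 lower calls held without control 2, without knockout 1 or without knockout 2. Without control 1 the call of Hist1h1e held, without control 3 there were 4 and without knockout 3 there were 5, all among the 6. The Hist2h4 call was lost without any 1 library. It held in 4 of 14 alternatives, with adjusted p from 0.0277 to 0.159. The other 5 calls held in 7 of 14 (Hist1h3d) to 10 of 15 (Hist2h2be). Without knockout 1 a gene outside the 6, Hist4h4, was called lower. With voom, a weighted limma fit on the recovered reads, 0 members were called higher and 2 lower, Hist1h2be and Hist2h2be. In each of these fits the log2 change of all 6 genes stayed negative.

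Summed over all members, clustered histone genes had 144, 139 and 113 RPM (recovered reads scaled to 1000000 counted reads of the library, not to length) in the controls and 121, 103 and 98.8 RPM in the knockouts, groups that overlapped. The 3 leading genes together took 92.6 ± 10.1 RPM in controls and 86.9 ± 12.1 in knockouts (SD, n = 3 each), again overlapping. The other 65 rows together took 40.9, 45.8 and 30.5 RPM in the controls and 22.1, 16.0 and 24 in the knockouts. These did not overlap, and the means of 39.1 ± 7.81 and 20.7 ± 4.15 stand in a ratio of 0.529. Of their 8310 reads, Hist2h2be held 2763, Hist1h2be 1071 and Hist1h1e 846, all called lower. The ratio is therefore weighted to a few called genes and does not describe the 65 rows one by one. By type, H4 reads ran from 5.65 to 8.27 RPM in controls and from 2.65 to 5.26 in knockouts, without overlap, a ratio of the means of 0.562. H3 reads had a ratio of 0.545, from means of 1.5 ± 0.612 and 0.815 ± 0.263 RPM that overlapped between groups. H2B had means of 73.7 ± 12.2 and 56.7 ± 8.73, H1 of 36.4 ± 6.03 and 34.4 ± 6.23, and H2A of 13.4 ± 2.97 and 11.9 ± 1.63 RPM, all 3 with overlapping groups. Knockout 2, the library with the lowest podocyte and the highest leukocyte marker sum, also had the lowest H2A, H2B, H3 and H4 RPM. Any part of cell makeup in this was not tested. The 49 rows under the filter summed to 387 reads in controls and 377 in knockouts, a ratio per counted read of 0.892 with a 95% interval of 0.772 to 1.03 for counting error only. Hist1h1a and Hist1h1b go the other way, and without them these sums were 367 and 304 reads, a ratio of 0.759. Both genes were left out for their values, which by itself lowers the ratio, so nothing is drawn from it. Under the filter the groups did not overlap in 7 rows. Knockouts were higher in 4 (Hist1h1a, Hist1h1b, Hist1h2ab and Hist1h4k) and lower in 3 (Hist1h2ae, Hist1h2bf and Hist1h2bk). The last 5 of these were named after their values were seen. The share of all genes under the filter with such groups was not computed, so 7 cannot be called many or few.

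**Figure D3:**
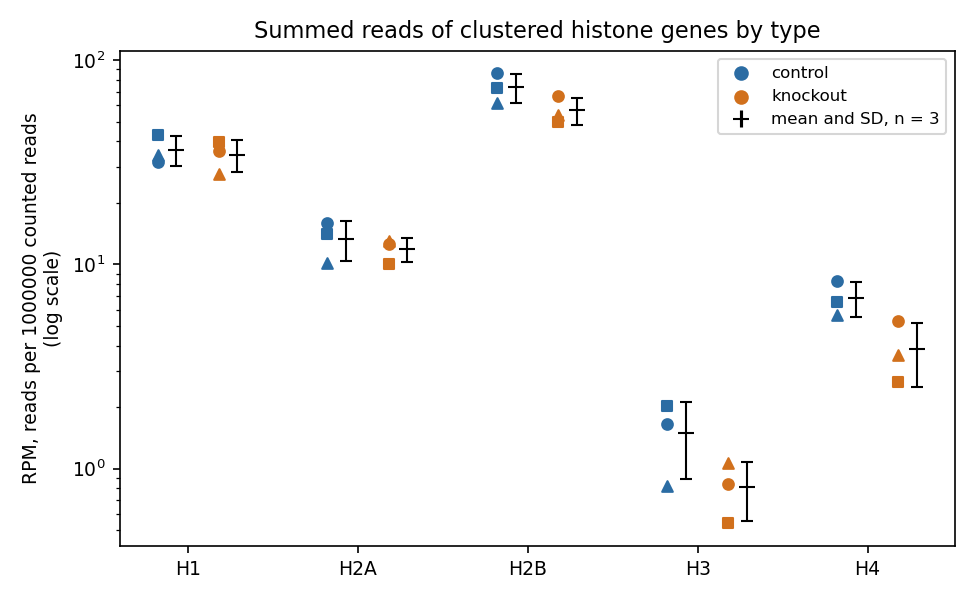
Summed RPM of all clustered histone genes of a type, reads scaled to 1000000 counted reads (log axis), 1 point per library (blue, controls; orange, knockouts), with the mean and SD of 3 libraries in black beside them. H4 is the type whose groups are apart, at 5.65 to 8.27 against 2.65 to 5.26 RPM, while the H1, H2A, H2B and H3 points overlap.

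Genes of DNA replication and of histone supply were then set beside the members, from lists chosen for this pathway. Of 25 S phase genes tested, 20 were called higher and none lower by limma and by voom, with a median log2 change of 0.94 and 1 gene lower at an unadjusted p under 0.05. Of these, Cdc6, Ccne1 and Ccne2 had control means under 0.5 RPKM and passed the filter through the knockouts alone. Among the 22 with both group means at or above it, 18 were called higher and the median was 0.94, again without a share of all genes under that rule. The helicase subunit gene Mcm6 stood at 1.55, 1.68 and 1.89 RPKM in controls and 7.95, 11.9 and 10.4 RPKM in knockouts, and rose by 2.24 on the log2 scale (SE 0.181, adjusted p = 0.00205). Gins2, of the same replicative helicase, rose by 1.96 (adjusted p = 0.00214) and Ccna2, a cyclin of S and G2 phase, by 2.58 (adjusted p = 0.00234). Pcna, the sliding clamp of the polymerases, rose from 20.6 ± 1.85 to 29.3 ± 1.53 RPKM, a log2 change of 0.50 (adjusted p = 0.0329), a call that held in 8 of 15 alternatives and was lost without any 1 library other than control 2. Mki67, a marker of cycling cells outside this list, rose from 0.469 ± 0.0797 to 7.48 ± 2.95 RPKM, a log2 change of 2.97 (adjusted p = 0.00234). Mki67 also passed the filter through the knockouts alone. All 3 control values of Mcm6, Gins2, Ccna2, Pcna and Mki67 lay below all 3 knockout values. The 5 S phase genes that did not pass were Cdk2, Mcm7, Ccne2, Pola1 and E2f1, the last with a log2 change of -0.97 (adjusted p = 0.0533). Without knockout 2 the count of S phase genes called higher was 9, and it was 13 without any 1 control or without knockout 3.

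Of 10 tested genes of the machinery that makes and trims histone mRNA, 0 passed in either direction by limma or by voom, with 3 higher and 1 lower at an unadjusted p under 0.05. Slbp stood at 11.6, 12.2 and 10.4 RPKM in controls and 14.9, 14.2 and 16.6 RPKM in knockouts, groups that did not overlap, with a log2 change of 0.40 (SE 0.124, adjusted p = 0.0747). Lsm10, a subunit of the U7 particle that cuts the mRNA end, had a change of 0.40 (adjusted p = 0.117) and Cpsf2, a subunit of the cleavage complex, one of 0.44 (adjusted p = 0.120). Npat, the coactivator of the clustered histone genes, had a change of 0.27 with a 95% interval of -0.12 to 0.66 (adjusted p = 0.318).

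Of 20 tested chaperones and carriers of histone proteins, 5 were called higher and 1 lower. Asf1b, a chaperone of H3 and H4 in dividing cells, rose by 1.79 on the log2 scale (SE 0.283, adjusted p = 0.00949), from 0.60 ± 0.228 to 3.40 ± 1.21 RPKM. Chaf1a, the large subunit of the assembly factor that follows the replication fork, rose by 1.41 (SE 0.202, adjusted p = 0.00709), and Hat1, which acetylates new H4, by 0.73 (SE 0.137, adjusted p = 0.0166). Chaf1b and Ipo4 also passed, with changes of 0.51 and 0.53, and Nap1l1, a chaperone of H2A and H2B, fell by 0.64 (adjusted p = 0.0166). Without control 1 or without knockout 2 the count called higher was 2, with the Hat1 call lost, and it was 3 without control 2, control 3 or knockout 1.

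Of 11 histone variant genes outside the clusters, 3 were called higher and none lower by limma, with 2 higher by voom and 0 lower by voom or at an unadjusted p under 0.05. H2afx, which encodes the H2A variant phosphorylated at DNA breaks, stood at 6.54, 5.24 and 5.97 RPKM in controls and 10.9, 15 and 13.6 RPKM in knockouts, and rose by 1.08 on the log2 scale (SE 0.160, adjusted p = 0.00780). The linker variant gene H1fx rose by 0.96 (adjusted p = 0.0128), and Cenpa, the H3 variant of centromeres, by 0.95 (adjusted p = 0.0461). The Cenpa call held in 3 of 15 alternatives, with adjusted p from 0.0248 to 0.164, and was lost with voom and without any 1 library other than knockout 1. The H1fx call was lost without knockout 2. Among replacement variants, H3f3b and H1f0 had high levels and H2afz a lower one, all without a call. H3f3b had 176 ± 41.3 RPKM in controls and 159 ± 27.5 RPKM in knockouts (adjusted p = 0.742). H1f0 had 95.9 ± 11.7 and 112 ± 14.9 RPKM (adjusted p = 0.409), and H2afz had 5.53 ± 0.434 and 6.58 ± 0.970 RPKM (adjusted p = 0.367). Per length, H3f3b thus stood far above all clustered H3 genes in every library. Poly(A) selection and the handling of reads with several matches are not stated. This gap is therefore one in counted reads, and a gap in mRNA was not tested. Without knockout 2 the count of variants called higher was 1.

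**Figure D4:**
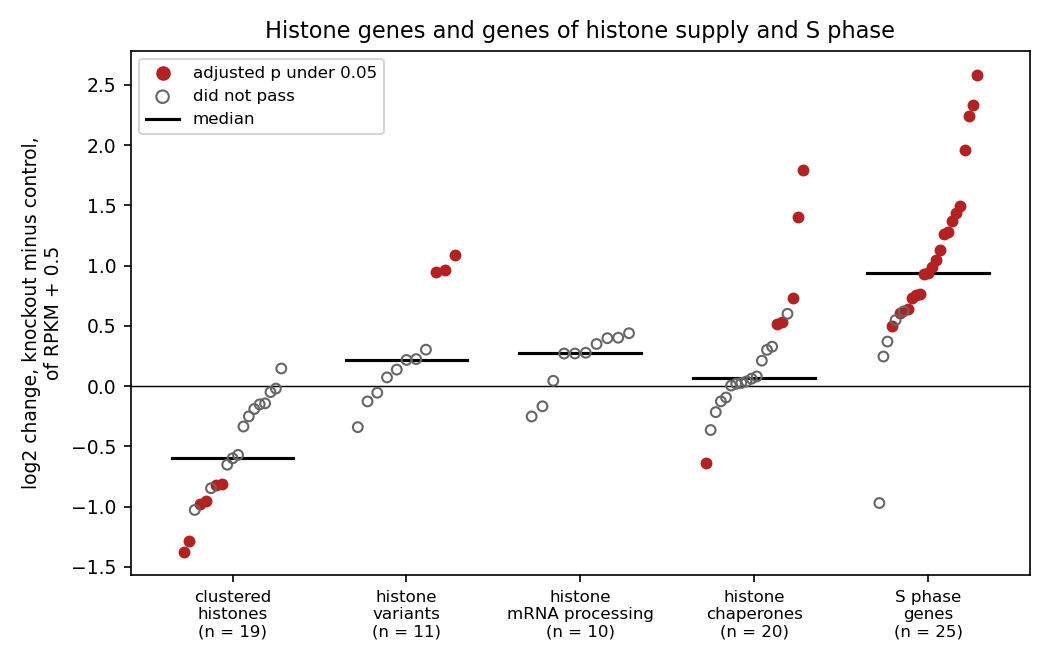
Log2 change of RPKM + 0.5 from control to knockout for the genes tested among the clustered histones (19), histone variants (11), histone mRNA processing (10), histone chaperones (20) and S phase genes (25), sorted within each column. Filled red points passed an adjusted p under 0.05 and open points did not. The black bar is the median of the column, which is -0.60 for the clustered histones and 0.94 for the S phase genes. Of these, 4 clustered histones passed the filter through the controls alone and 3 S phase genes through the knockouts alone. Without those genes the medians are -0.34 and 0.94.

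The 19 tested members and the 49 others differed in how much of their sequence is shared with other copies. Annotated transcripts of the members were broken into 50-base words up to just past the stem-loop, and the share found in no other member was counted. It was 70.6% at the median of the tested members, with a lowest value of 27.8%, and 33.9% at the median of those under the filter. Of the 10 members at 0 in every library, 9 had under 15% of such words. Hist2h3c2 and Hist2h2aa2 had 0% of them, with all of their words present in Hist2h3c1 and Hist2h2aa1. In all, 15 members were under 15%, none was tested and none had over 47 reads. How the counting treated reads that match several copies is not stated, so a 0 for such a copy does not show that it was silent.

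**Figure D5:**
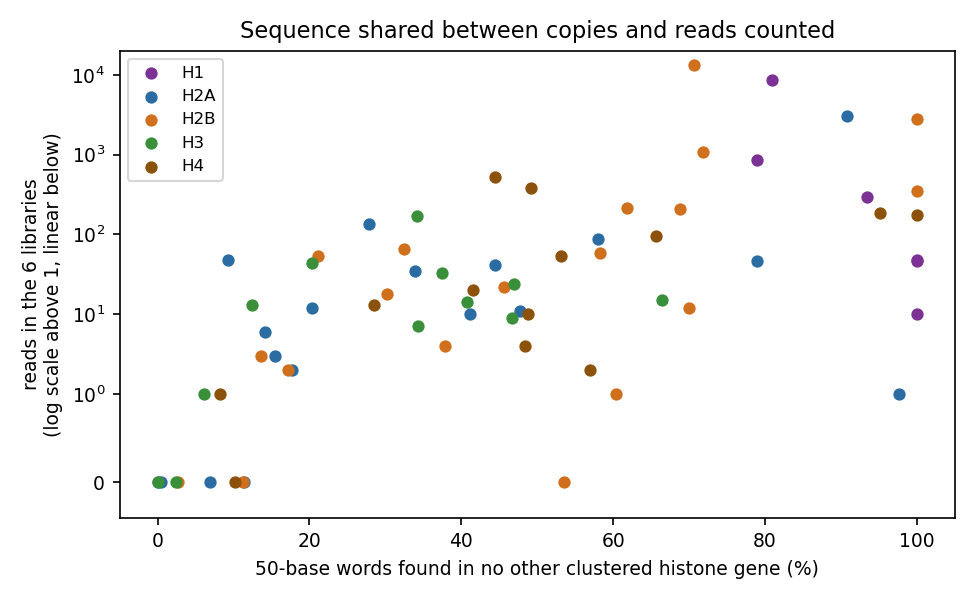
Reads summed over the 6 libraries (log axis above 1, linear below) against the percentage of a gene's 50-base words found in no other clustered histone gene, 1 point per member, coloured by type. Of the 10 members with 0 reads, 9 lie under 15%, and no member under 15% has over 47 reads.

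The tested members have a single annotated exon each, apart from Hist1h2bc and Hist1h2be with transcripts of 2 exons. The annotated ends differed too. In 15 tested members with a stem-loop, 12 had a GENCODE transcript that runs at least 100 bases past it, against 11 of 31 stem-loop members under the filter. The lengths recovered from the table, however, equalled the RefSeq gene span in 38 of the 58 members with reads, and these RefSeq models end close to the stem-loop. Any reads past the stem-loop of such genes would lie outside a span of that length. Hist1h2be and Hist2h2be, with recovered lengths of 2510 and 2618 bases, were exceptions and were counted over long models.

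Many H2A and H2B genes lie head to head and share the DNA between them, and 12 such pairs were found with gaps of 163 to 280 bases. The pairs ranged from near equal to very unequal in counted level. Hist1h2ag and Hist1h2bj differed by a ratio of 1.12 and Hist1h2ah and Hist1h2bk by 1.23, all 4 genes under the filter. Hist1h2ac had a mean of 0.246 RPKM over the 6 libraries beside 61.7 RPKM for Hist1h2bc, a ratio of 251, across a gap of 239 bases at chr13:23683960-23684198. For Hist1h2ac, 33.9% of the 50-base words occur in no other member, against 70.6% for Hist1h2bc. The part of read handling or of poly(A) selection in this ratio was not tested. Hist3h2a stood at 21.8 RPKM beside 0.103 RPKM for Hist3h2bb-ps. Hist2h2ac and Hist2h2be, the 1 pair with both members tested, stood at 0.645 and 3.82 RPKM, and both had every knockout below every control. The promoter of Hist1h2ac in the RefSeq table of GRCm38.p6, chr13:23683910-23684209 on the minus strand, is shown because it spans the whole gap of the most unequal pair. Capitals mark matches to the motifs searched, and the last 50 bases follow the Hist1h2ac start.

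Hist1h2ac promoter: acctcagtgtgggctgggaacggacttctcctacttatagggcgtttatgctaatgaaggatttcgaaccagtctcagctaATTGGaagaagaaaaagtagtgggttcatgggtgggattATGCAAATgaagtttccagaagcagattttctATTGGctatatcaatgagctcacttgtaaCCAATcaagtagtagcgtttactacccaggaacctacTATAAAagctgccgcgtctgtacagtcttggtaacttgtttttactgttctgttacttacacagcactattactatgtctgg

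On the Hist1h2ac strand it holds TATAAA at -32 and CCAAT at -69 from the start. In the other orientation, which is that of Hist1h2bc, it holds CCAAT at -98 and -169 and the octamer ATTTGCAT at -130. The same letters were searched on both strands of 300 bases at each start, in the promoters of 61 members and of 27025 genes in all. CCAAT was found in 52 members (85.2%) against 41.1% of all promoters, in every H1, H2A, H2B and H3 promoter but in 3 of 12 H4 promoters. TATAAA was found in 35 members (57.4%) against 15.7%. ATTTGCAT was found in 14 members (23.0%), 7 of H2A and 7 of H2B, against 1.97%, and TTTCGCGC in 9 members (14.8%), 5 of H2A and 4 of H2B, against 0.374%. TTTGGCGC was in no member and in 0.585% of all promoters. Promoters of a head-to-head pair overlap, so the H2A and H2B counts are partly the same matches, and a match of letters is not a bound site.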

How the data were processed

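Per the labels' protocols, glomeruli were isolated from perfused mice with magnetic particles and total RNA was sequenced on Illumina libraries. The authors deposited 1 table with RPKM values of every gene in every library. The mm10 genome and the tools STAR, featureCounts, edgeR and FastQC are named in the submitters' processing notes. Versions, strand setting and the handling of reads with several matches were not given in the sources used here. From the deposited RPKM steps, whole reads were recovered for 24062 of 24062 rows (100%, within 0.001 read), 4567 of which are 0 throughout. The 27 rows with a date in place of a symbol were left out. limma 3.58.1 (R 4.3.3, trend) was fitted to log2(RPKM + 0.5) of the 13912 genes averaging 0.5 RPKM or more, two-sided, and the code was tested on simulated data. On recovered reads, voom called 1339 genes higher and 453 lower. Named genes were, per type, the 5 highest and the 3 with the smallest p, all Hist3h and Hist4h rows, the 3 testis genes, the 3 with the smallest p per pathway list and 8 fixed genes. The members and lists were chosen with earlier results of these data known. The labels give no pairing, and replicate numbers were not used as pairs outside the replicate block alternative. Of 68 members, 67 matched RefSeq (GRCm38.p6) by symbol or synonym. Intervals from reads cover counting error only. The alternatives changed the pseudocount, filter, scaling, trend, unit, block or left out a library.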

Additional observations from a re-analysis of the deposited data

How the results depend on the processing

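No clustered histone gene was called higher in the 15 alternatives run, and no processing gene was either. Members called lower numbered 1 without a filter, 3 with a filter at 2 RPKM, 2 with voom and 0 to 5 with a library left out, and 8 with quantile normalization, which kept the 6 and added Hist1h2ad and Hist1h4c. The median change of the members on the log2 scale was -0.90 at a pseudocount of 0.1, -0.065 without a filter, which brings in members near 0, -0.99 with quantile normalization, -0.90 with voom and -0.81 to -0.43 with a library left out. Quantile normalization shifted the median of all genes by -0.15 and median-of-ratios factors by -0.10, and the share of calls that were higher was 74.2% as reported, 51.4% and 60.5%. All genes called higher were 841 with a filter at 2 RPKM, 848 with quantile normalization and 526 to 1536 with a library left out, and all genes called lower 803 with quantile normalization and 127 to 619 with a library left out. S phase genes called higher were 13 with quantile normalization and 9 to 15 with a library left out. Chaperones called higher were 3 without a filter, with the filter at 2 RPKM, with quantile normalization and with median-of-ratios factors, and 2 to 4 with a library left out. Variants called higher were 1 to 3 with a library left out.

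With the replicate block, all genes called higher were 632 and lower 179, members called lower 0, S phase 9, chaperones 2 and variants 1 higher. Deviations of same-numbered libraries from their group means correlated at 0.17, -0.22 and -0.46, and those of differently numbered ones at -0.38 to 0.50. With 3 libraries a group, such values cannot decide whether the numbers mark pairs.

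Some small changes turned sign: Hist1h1d to -0.21 and Klf4 to -0.0098 with quantile normalization, and Klf4 to -0.093 with median-of-ratios factors. With a library left out, values ran from -0.15 to 0.16 for Hist1h1c, from -0.11 to 0.42 for Hist1h1d, from -0.39 to 0.020 for Hist1h2ba, from -0.42 to 0.21 for Hist2h2bb, from -0.21 to 0.10 for Hist3h2a and from -0.35 to 0.24 for Klf4. None of these passed the test. Where a value moved, the cause was not tested. Fewer than 100 reads per gene limit most H3 and H4 members.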
